A study of Homo sapiens with 6 samples.

Results

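The genes described here make ribosomes. They comprise MYC, RNA polymerase I and its cofactors, the small nucleolar RNA-protein particles (snoRNPs), abundant nucleolar phosphoproteins and the factors that assemble the small and large ribosomal subunits. The list of 39 genes was matched by symbol to the probe annotation of the array. Of these, 36 had a named probe (64 probes in all), out of 20046 named genes and 47231 probes, and no probe was named for DDX18, GNL3 or WDR43. Expression had been measured on Illumina BeadArrays in SKOV3 cells, an established human ovarian carcinoma line, 48 h after treatment with a control siRNA (sicontrol, 3 arrays) or with an siRNA against the long non-coding RNA NRCP (siNRCP, 3 arrays). The comparison asks which transcripts differ once NRCP is silenced. No probe was named NRCP in the annotation used, so the silencing itself was not checked here on any array. All samples come from this 1 cell line, and the labels do not state whether the replicates were separate cultures, so each p-value reflects the variation among these arrays alone, and that may be technical.

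Ribosome production starts in the nucleolus, where RNA polymerase I copies the ribosomal DNA into a long precursor RNA. snoRNPs guide chemical modification of that precursor, the box C/D class carrying the methyltransferase fibrillarin and the box H/ACA class carrying the pseudouridine synthase dyskerin. Assembly factors then cut, fold and package the RNA into a small and a large subunit. MYC is known to drive many of these genes, and their output is often high in growing tumour cells.

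Values are log2 intensities after background correction and quantile normalization, each gene is represented by its brightest probe unless another is named, and a change is siNRCP minus sicontrol. The 3 values of a group are given in the order of arrays 1, 2 and 3. A value after ± is the standard error of a change or the SD of a group mean, with n = 3 in each group. A probe counts as above background where it exceeds the 95th percentile of 437 olfactory receptor probes on at least 3 arrays. Of the 36 genes, 33 met that rule, 31 of them on all 6 arrays. RRP9 met the level on 5 arrays and UTP20 on 3. POLR1A, TCOF1 and NPM1 met it on 0 arrays, so a change in these 3 genes was not detectable with these probes.

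The arrays were not of one kind within each group, and this touches most values below. Mean raw intensity per array ran from 373 (siNRCP array 2) to 563, and between 39.8% and 44.0% of probes exceeded the background level. siNRCP array 1 stood apart from siNRCP arrays 2 and 3. The limma threshold (Benjamini-Hochberg over all probes, adjusted p under 0.05) was met by 781 of 47231 probes with all 6 arrays (0.737% higher and 0.917% lower), and by 9920 without siNRCP array 1. Leaving out sicontrol array 1, 2 or 3 gave 12, 18 or 5 probes, and leaving out siNRCP array 2 or 3 gave 187 or 39. Where leaving out siNRCP array 1 changes a call, the gene is given with and without it or named in the list of calls without it. Of 11 markers of epithelial and ovarian carcinoma cells, 10 were above background on every array, including ERBB2, EPCAM and KRT8, and WT1 was at background. Of markers of other cell types, 4 of 6 for leukocytes (PTPRC, CD3E, CD4 and LYZ), 4 of 5 for endothelium (VWF, CDH5, KDR and TEK) and 4 of 7 for fibroblasts (COL3A1, LUM, PDGFRB and THY1) were at background on all arrays. CD68 was above it on all 6 arrays, at a mean of 10.88 in sicontrol and 11.12 in siNRCP, and so was COL1A1, at 6.68 and 6.59. COL1A2, PECAM1, CD14 and DCN were above it on some arrays. The log2 of the summed leukocyte markers, of which CD68 was by far the brightest, ran from 11.1 to 11.2 in sicontrol and from 11.0 to 11.7 in siNRCP. For the endothelial markers it ran from 8.40 to 8.56 and from 8.50 to 8.58, and for the fibroblast markers from 9.05 to 9.09 and from 9.05 to 9.12. The part of such cells in the results was not tested.

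NOLC1 was the single member that passed the test. It encodes Nopp140, a phosphoprotein that binds snoRNPs and escorts them through the nucleolus and Cajal bodies. Its probe read 6.89, 6.67 and 6.98 in sicontrol and 8.26, 8.40 and 8.39 in siNRCP. All siNRCP arrays, array 1 included, lay well above all sicontrol arrays. The group mean of NOLC1 went from 6.85 ± 0.16 to 8.35 ± 0.08, a rise of 1.50 ± 0.11 log2 or 2.83-fold (limma adjusted p = 0.0042). Without siNRCP array 1 the change was 1.54 (adjusted p = 2.6e-07). It kept its size but did not pass without sicontrol array 1 (1.52, limma adjusted p = 0.056) or sicontrol array 3 (1.57, adjusted p = 0.0504). Over all alternatives its limma adjusted p ran from 2.6e-07 to 0.13. Its sicontrol values lay near the background level of those arrays (6.41 to 6.42). The size of the change depended on the background handling, from 1.19 log2 without background correction to 1.85 with an offset of 16. The gene has 1 named probe, so no second probe bears on it, and in bulk RNA a change in the number of cells that express a gene and a change in its RNA per cell cannot be told apart.

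As a set the members gave few calls. Of 36 genes 1 rose and 0 fell, where 1.27% and 1.51% of all named genes did. The share called in either direction was 2.78% of the members and 2.78% of all named genes. Among genes above background it was 3.03% of the members and 4.83% of all named genes. At an unadjusted limma p under 0.05 there were 6 members (16.7%), against 20.5% of all named genes and 33.6% of those above background. Apart from NOLC1 the adjusted p lay between 0.066 and 0.98. The median change over the 36 genes was -0.09 log2, against 0.01 over all named genes, with 16 genes above 0 and 20 below. It was -0.22 without siNRCP array 1, 0.04 without siNRCP array 2 and -0.04 without siNRCP array 3, so its sign turned without siNRCP array 2. The array values of both groups were fully separate for 6 members, of which 5 were higher in siNRCP (DKC1, NOLC1, NOP14, PES1 and UBTF; 11.4% of all named genes did this, and 15.7% of those above background) and 1 was lower (WDR12; 10.8% of all named genes, and 14.9% of those above background).

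**Figure D1:**
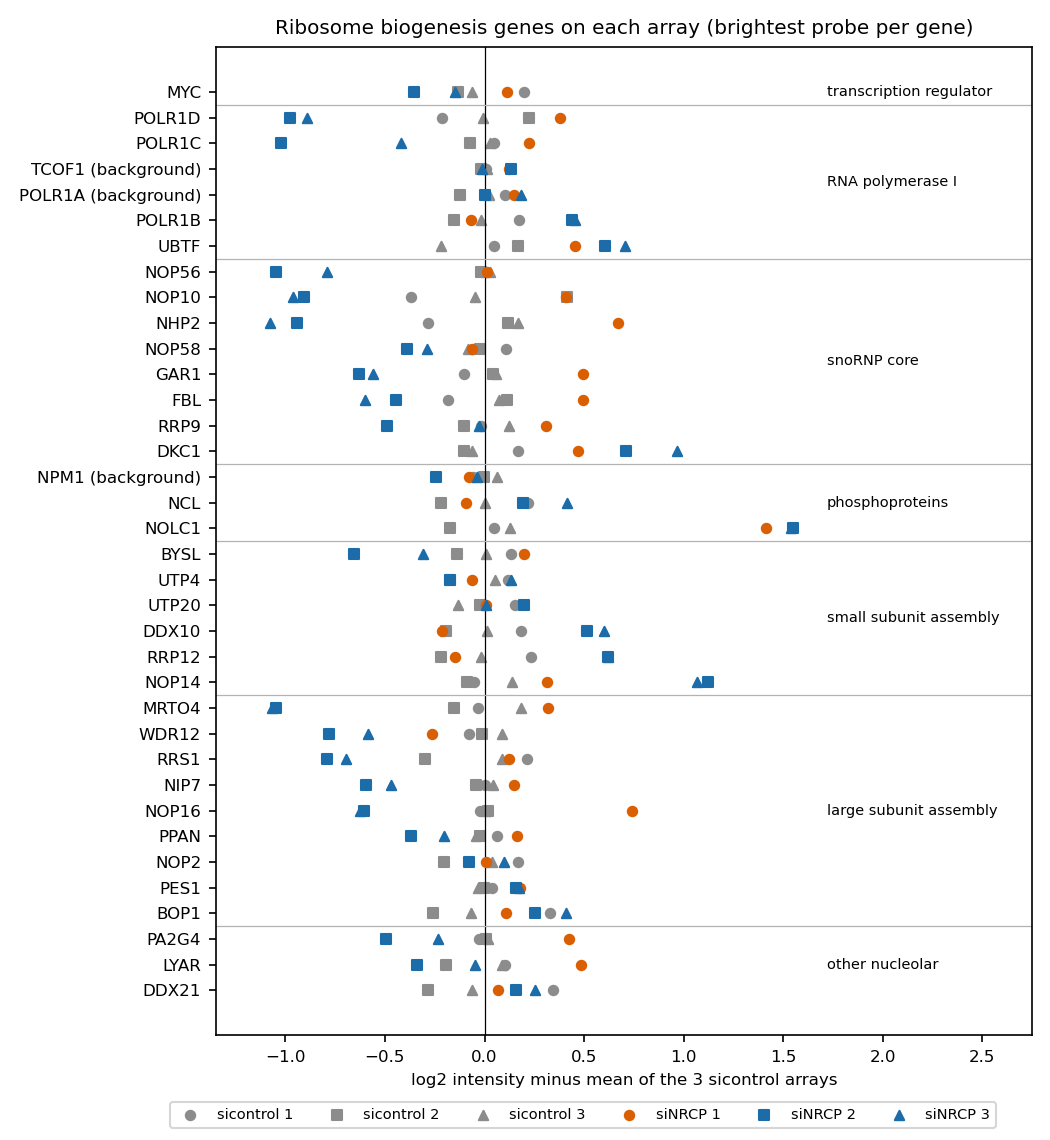
Log2 intensity of each of the 36 genes on each array, minus the mean of the 3 sicontrol arrays (x axis), by role; grey marks are sicontrol arrays, orange siNRCP array 1 and blue siNRCP arrays 2 and 3. NOLC1 stands near 1.5 on all siNRCP arrays, while many snoRNP and large subunit genes lie to the right of 0 on siNRCP array 1 and to the left on arrays 2 and 3.

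MYC itself did not pass. This transcription factor gene read 11.31, 10.98 and 11.05 in sicontrol and 11.22, 10.76 and 10.97 in siNRCP. The groups overlapped, with siNRCP array 1 inside the sicontrol range. Its change was -0.13 ± 0.15 log2 (limma adjusted p = 0.78), and -0.25 without siNRCP array 1 (adjusted p = 0.22). Its second probe read -0.17 ± 0.12 (limma adjusted p = 0.62), and MYC passed under 0 of 16 alternatives.

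Among RNA polymerase I genes, 0 of 6 passed and the 4 above background went different ways. UBTF, the factor that opens ribosomal DNA for transcription, read 7.06, 7.18 and 6.80 in sicontrol and 7.47, 7.62 and 7.72 in siNRCP. Every siNRCP array lay above every sicontrol array, at 0.59 ± 0.13 log2 (limma adjusted p = 0.078), and the gene passed without siNRCP array 1 (0.66, adjusted p = 0.00088). A second UBTF probe above background read 0.20 ± 0.10 (adjusted p = 0.44). POLR1D, a small subunit shared by RNA polymerases I and III, was the brightest gene of this role. It read 11.19, 11.63 and 11.40 in sicontrol and 11.79, 10.43 and 10.52 in siNRCP. The first siNRCP array was the highest of all 6 and the other two were the lowest, so the change was -0.50 ± 0.34 (limma adjusted p = 0.61). Without siNRCP array 1 POLR1D fell by 0.94 log2 (adjusted p = 4.6e-05). A second POLR1D probe read -0.24 ± 0.14 over all arrays (limma adjusted p = 0.54), with siNRCP array 1 inside the sicontrol range. POLR1C, which shares both polymerases with POLR1D, showed the same order of siNRCP arrays, with 9.92 on array 1, 8.68 on array 2 and 9.28 on array 3 against 9.63 to 9.75 in sicontrol. The probes of POLR1B, the second largest catalytic subunit, disagreed in sign. The brighter one read 7.44, 7.11 and 7.25 in sicontrol and 7.20, 7.71 and 7.72 in siNRCP, a change of 0.28 ± 0.16 (limma adjusted p = 0.54; 0.45 and 0.011 without siNRCP array 1), while the other read 7.54, 7.31 and 7.55 in sicontrol and 7.11, 7.24 and 7.48 in siNRCP, a change of -0.19 ± 0.13 (adjusted p = 0.59). The direction for POLR1B is therefore unsettled.

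The box H/ACA snoRNP is built from 4 proteins, and their genes did not pass with all arrays. On siNRCP array 1 all 4 lay above the sicontrol mean (DKC1 by 0.47, GAR1 0.50, NHP2 0.67 and NOP10 0.41 log2). On siNRCP arrays 2 and 3 DKC1 lay above that mean and the others below it. Differences between these genes were not tested. DKC1, which encodes dyskerin, the catalytic subunit, read 11.55, 11.28 and 11.32 in sicontrol and 11.85, 12.09 and 12.35 in siNRCP. It lay higher on every siNRCP array than on any sicontrol array. The change was 0.71 ± 0.14 log2 (limma adjusted p = 0.066), short of the threshold. DKC1 passed with cyclic loess normalization (0.69, limma adjusted p = 0.024), with array weights (0.88, 0.0012) and without siNRCP array 1 (0.84, 8.8e-05), and not under the other 13 alternatives.

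The 3 partners of dyskerin followed another order. NHP2, an RNA-binding partner that holds the guide RNA, read 9.88, 10.28 and 10.33 in sicontrol and 10.83, 9.22 and 9.08 in siNRCP. NOP10, a small protein that bridges NHP2 and dyskerin, read 11.20, 11.98 and 11.52 in sicontrol and 11.98, 10.66 and 10.61 in siNRCP. GAR1, which binds dyskerin and promotes substrate turnover, read 10.35, 10.50 and 10.51 in sicontrol and 10.95, 9.82 and 9.89 in siNRCP. For NHP2 and GAR1 siNRCP array 1 was above every sicontrol array, for NOP10 it was next to the highest of them, and for all 3 genes siNRCP arrays 2 and 3 were below every sicontrol array. The changes over all arrays were -0.45 ± 0.43, -0.49 ± 0.38 and -0.23 ± 0.28 log2 for NHP2, NOP10 and GAR1 (limma adjusted p = 0.74, 0.66 and 0.81). Without siNRCP array 1 they fell by 1.01, 0.93 and 0.59 log2 (adjusted p = 3.6e-05, 0.00050 and 0.00071). All 4 probes of NHP2 and both of NOP10 gave this order of arrays. A dimmer GAR1 probe differed in sign over all arrays (0.11 ± 0.22, limma adjusted p = 0.89), with 7.19, 7.39 and 7.68 in sicontrol and 8.01, 7.28 and 7.30 in siNRCP. NHP2 and NOP10 were singled out after their values were seen, as partners of DKC1.

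**Figure D2:**
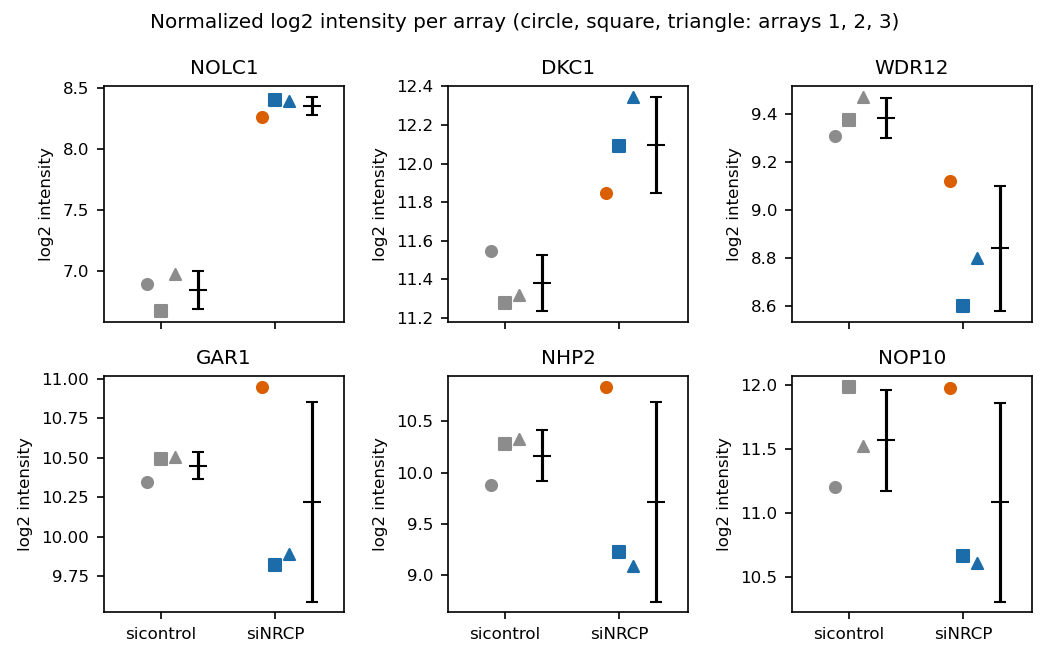
Normalized log2 intensity (y axis, own scale per panel) on each sicontrol (grey) and siNRCP array (orange for array 1, blue for arrays 2 and 3), with the group mean and SD as bars (n = 3). NOLC1, DKC1 and WDR12 separate the groups on all arrays, whereas GAR1 and NHP2 have siNRCP array 1 at the top and arrays 2 and 3 at the bottom. NOP10 has arrays 2 and 3 at the bottom and array 1 just under sicontrol array 2.

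The regions upstream of the H/ACA genes are shown because these partners of 1 particle differed in expression. Each is the 250 bases before the RefSeq gene start on GRCh38.p14, written 5′ to 3′ on the gene's strand, with matches to the E-box CACGTG (the site that MYC with MAX can bind) and to CCGGAAG (the core of ETS factor sites), searched on both strands, in capitals. No match of one overlapped the other. GAR1 has a pair of annotated starts, and both windows are shown. The windows are chrX:154762614-154762863 (plus strand) for DKC1, chr4:109815260-109815509 and chr4:109815512-109815761 (plus strand) for GAR1, chr5:178153886-178154135 (minus strand) for NHP2 and chr15:34343137-34343386 (minus strand) for NOP10.
DKC1: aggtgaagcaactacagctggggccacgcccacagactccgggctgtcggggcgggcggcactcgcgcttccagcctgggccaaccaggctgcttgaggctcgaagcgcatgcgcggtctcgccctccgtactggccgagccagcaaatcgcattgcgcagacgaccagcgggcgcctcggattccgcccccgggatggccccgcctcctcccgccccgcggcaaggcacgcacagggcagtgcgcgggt
GAR1, upstream start: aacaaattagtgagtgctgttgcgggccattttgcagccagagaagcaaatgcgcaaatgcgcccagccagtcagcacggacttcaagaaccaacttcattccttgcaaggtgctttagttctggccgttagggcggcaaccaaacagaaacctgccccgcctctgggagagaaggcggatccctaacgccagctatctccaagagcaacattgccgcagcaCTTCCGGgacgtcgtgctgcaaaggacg
GAR1, downstream start: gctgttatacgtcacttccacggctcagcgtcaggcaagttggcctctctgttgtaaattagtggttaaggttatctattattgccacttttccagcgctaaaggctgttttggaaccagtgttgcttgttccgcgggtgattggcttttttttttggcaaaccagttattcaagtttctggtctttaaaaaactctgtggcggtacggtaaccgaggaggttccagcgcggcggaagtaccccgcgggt
NHP2: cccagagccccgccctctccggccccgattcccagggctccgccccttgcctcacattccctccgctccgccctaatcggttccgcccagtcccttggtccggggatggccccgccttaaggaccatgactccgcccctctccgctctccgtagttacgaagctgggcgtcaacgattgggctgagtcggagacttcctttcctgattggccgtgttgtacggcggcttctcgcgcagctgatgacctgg
NOP10: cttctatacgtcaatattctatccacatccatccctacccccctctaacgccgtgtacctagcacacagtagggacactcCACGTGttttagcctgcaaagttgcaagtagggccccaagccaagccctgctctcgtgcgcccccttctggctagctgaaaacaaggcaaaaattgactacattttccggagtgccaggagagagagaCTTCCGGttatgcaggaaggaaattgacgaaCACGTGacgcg
The NOP10 window held E-boxes at positions -170 and -11 from the gene start and a CCGGAAG match on the opposite strand at -42. The window of the upstream GAR1 start held a CCGGAAG match on the opposite strand at -28. These letters were not found in the DKC1 and NHP2 windows or in that of the downstream GAR1 start. A window was at hand for 29 of the 36 genes. Of these 5 (17.2%) held CACGTG, namely DDX21, LYAR, NOP10, UTP4 and UTP20, against 11% of 9310 genes above background and 7.73% of all 27305 genes with a window. CCGGAAG was in 11 of the 29 (37.9%), against 18.9% and 10.2%. Of 128 other ribosome biogenesis genes with a window, 13.3% held CACGTG and 32.8% held CCGGAAG. A match is a description of letters and not of binding.

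Transcripts of NOP56, NOP58 and FBL, of the box C/D snoRNP, were lower on siNRCP arrays 2 and 3 than on any sicontrol array. NOP56 and NOP58 form the scaffold of that particle and FBL encodes the methyltransferase fibrillarin. NOP56 read 11.70, 11.70 and 11.74 in sicontrol and 11.73, 10.67 and 10.93 in siNRCP, a change of -0.61 ± 0.25 log2 (limma adjusted p = 0.34), the lowest value of all members. Its dimmer probes read -0.20 and -0.25. NOP58 ranged from 11.38 to 11.57 in sicontrol and read 11.40, 11.08 and 11.18 in siNRCP. FBL read 12.03 on siNRCP array 1, above the sicontrol range of 11.35 to 11.65, and 11.09 and 10.93 on arrays 2 and 3, below it. Without siNRCP array 1 NOP56, NOP58 and FBL fell by 0.92, 0.34 and 0.52 log2 (limma adjusted p = 1.9e-05, 0.041 and 0.0041). Over the 8 snoRNP genes the median difference from the sicontrol mean was 0.44 on siNRCP array 1 and -0.56 and -0.58 on arrays 2 and 3, and DKC1 was the 1 gene above 0 on all 3.

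NCL, the most intense probe of the members, encodes nucleolin, which binds ribosomal DNA chromatin and precursor RNA. It read 12.66, 12.23 and 12.45 in sicontrol and 12.35, 12.64 and 12.86 in siNRCP. The groups overlapped, at 0.17 ± 0.16 log2 (limma adjusted p = 0.73, and a change of -0.18 under median scaling). A dimmer NCL probe read 0.33 ± 0.16 (limma adjusted p = 0.44). On it siNRCP arrays 2 and 3 lay above every sicontrol array and siNRCP array 1 inside their range. Neither change was near that of NOLC1 (1.50 log2).

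Genes of small subunit assembly gave no call, and NOP14 came nearest. NOP14, a scaffold of the small subunit processome, read 8.23, 8.19 and 8.42 in sicontrol and 8.59, 9.40 and 9.35 in siNRCP. The siNRCP arrays were all higher, with array 1 nearest to sicontrol, at 0.83 ± 0.21 log2 (limma adjusted p = 0.13). Its second probe, at 0.42 ± 0.11 (adjusted p = 0.14), also separated the groups, and without siNRCP array 1 the change was 1.10 (limma adjusted p = 3.6e-06). UTP4, a subunit of the complex that first binds the nascent precursor RNA, was the brightest gene of the role and read 11.41, 11.11 and 11.34 in sicontrol and 11.22, 11.11 and 11.42 in siNRCP. The groups covered the same range (-0.03 ± 0.12, limma adjusted p = 0.94). The helicase gene DDX10 and RRP12, a factor of subunit maturation and export, exceeded sicontrol on siNRCP arrays 2 and 3 only (DDX10 10.002 and 10.09 against 9.29 to 9.67; RRP12 8.07 on both against 7.23 to 7.69), while BYSL, a late assembly factor, lay below sicontrol on the same arrays (8.10 and 8.44 against 8.61 to 8.89).

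In large subunit assembly 0 of 9 measured genes passed, and the 3 subunits of the PeBoW complex differed in direction. PeBoW, made of PES1, BOP1 and WDR12, is needed to process the RNA of the large subunit. WDR12 read 9.31, 9.37 and 9.47 in sicontrol and 9.12, 8.60 and 8.80 in siNRCP. It was the 1 member whose siNRCP arrays all lay below all sicontrol arrays, at -0.54 ± 0.14 log2 (limma adjusted p = 0.13), and its second probe read -0.50 ± 0.11 (adjusted p = 0.074). PES1 read 9.09, 9.05 and 9.02 in sicontrol and 9.23, 9.21 and 9.22 in siNRCP, a small difference of 0.17 ± 0.08 (limma adjusted p = 0.42). BOP1 read 11.80, 11.22 and 11.41 in sicontrol and 11.58, 11.73 and 11.88 in siNRCP, with overlap (0.26 ± 0.16, limma adjusted p = 0.57; -0.039 under median scaling). Without siNRCP array 1 WDR12 fell by 0.68 log2 (limma adjusted p = 0.00028), and PES1 (0.16, 0.38) and BOP1 (0.33, 0.15) did not pass. WDR12 and PES1 were singled out after their values were seen, as partners of BOP1.

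The largest change in this role was that of MRTO4, which acts on the ribosomal stalk of the immature large subunit. It read 8.35, 8.23 and 8.56 in sicontrol and 8.70, 7.33 and 7.31 in siNRCP. Array 1 was above the sicontrol range and arrays 2 and 3 far below it, which gave -0.60 ± 0.35 log2 (limma adjusted p = 0.54), and -1.06 without siNRCP array 1 (adjusted p = 7.6e-06). NOP16, NIP7 and PPAN, further large subunit factors, had the same order, NOP16 with 8.49 on siNRCP array 1 and 7.15 and 7.13 on arrays 2 and 3 against 7.73 to 7.77 in sicontrol. RRS1, which helps place the 5S particle, was below sicontrol on siNRCP arrays 2 and 3 (7.88 and 7.98 against 8.38 to 8.89) and within the range on array 1. The RNA methyltransferase gene NOP2 stayed within 10.06 to 10.44 on all 6 arrays.

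The other nucleolar genes overlapped between groups. The helicase gene DDX21 read 11.18, 10.55 and 10.77 in sicontrol and 10.90, 10.99 and 11.08 in siNRCP (0.16 ± 0.16 log2, limma adjusted p = 0.76; -0.079 under median scaling). LYAR and PA2G4, nucleolar proteins tied to cell growth, read highest on siNRCP array 1 (10.78 and 11.07) and lowest on array 2 (9.96 and 10.15).

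**Figure D3:**
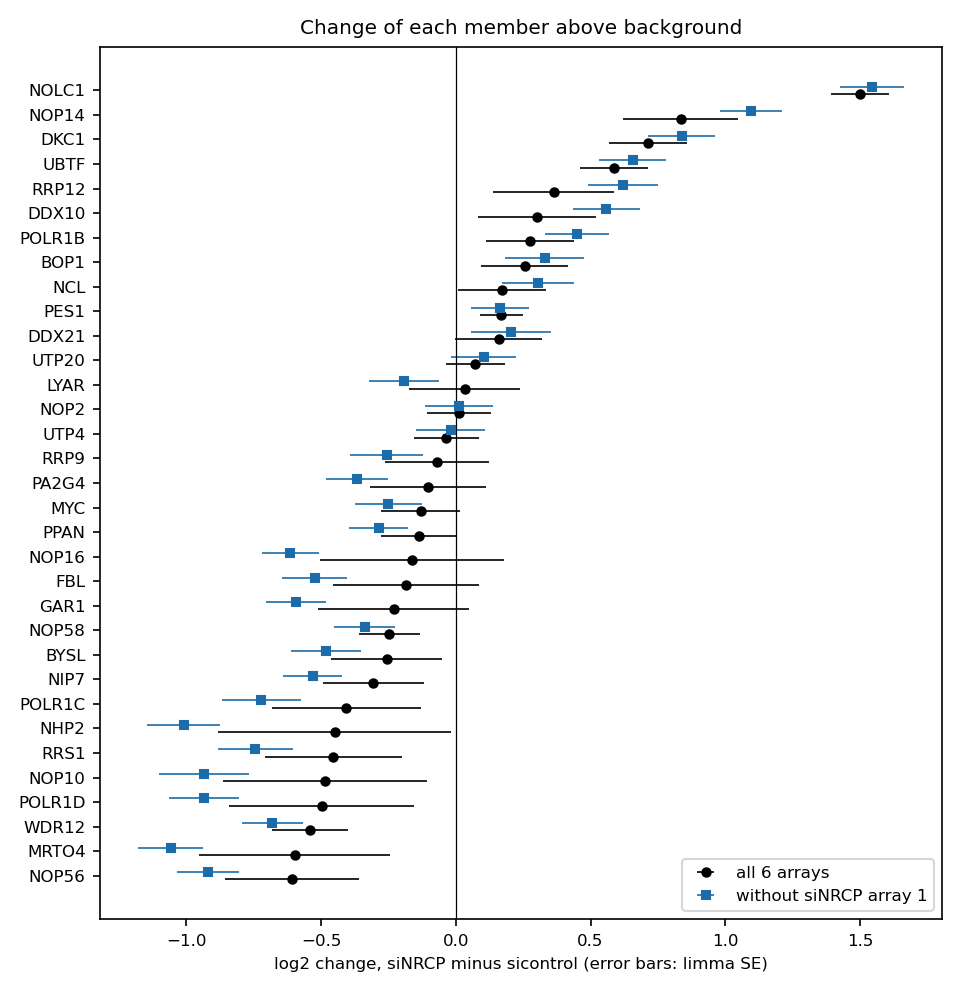
Log2 change with limma SE (x axis) of the 33 genes above background, with all 6 arrays (black circles) and without siNRCP array 1 (blue squares). Most genes below 0 move further left without that array, as NHP2 does from -0.45 to -1.01, while NOLC1 keeps its place.

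Leaving out siNRCP array 1 changed the picture most. In that fit 7 of 36 members rose (DDX10, DKC1, NOLC1, NOP14, POLR1B, RRP12 and UBTF; 17% of all named genes did) and 15 fell (14.2% of all named genes). Of the 11558 named genes above background, 3358 rose and 2830 fell. The 15 lower were BYSL, FBL, GAR1, MRTO4, NHP2, NIP7, NOP10, NOP16, NOP56, NOP58, PA2G4, POLR1C, POLR1D, RRS1 and WDR12. On the siNRCP side these calls rest on arrays 2 and 3 alone, which had the lowest mean raw intensity of all arrays (373 and 486). In either direction 22 of 36 members passed, against 31.3% of all named genes. Among genes above background 53.5% passed, against 22 of 33 members (66.7%). With all 6 arrays the share among genes above background was 4.83%. With other arrays left out, NOLC1 was the 1 member called, and calls were few among all named genes too. Without sicontrol array 2 it passed where 0.015% of named genes rose and 0.0549% fell. Without siNRCP array 2 those shares were 0.269% and 0.419%, and without siNRCP array 3 they were 0.0449% and 0.105%. Without sicontrol array 1 or 3, 0 members passed in limma (7 and 5 at an unadjusted p under 0.05), where 0% of named genes rose and 0.0499% or 0.0249% fell. By array values alone, 11 of 33 members (33.3%) exceeded the whole sicontrol range on siNRCP array 1 and lay under it on arrays 2 and 3, where 9.71% of 11558 named genes above background were. The opposite order was seen for 1 member, DDX10, and for 11.9% of those genes. Whatever the place of array 1, arrays 2 and 3 were both below sicontrol for 17 members (51.5%, against 33.2%) and both above it for 8 (24.2%, against 39.7%). Among 144 other ribosome biogenesis genes above background, 25% had the order of the 11 members and 6.25% that of DDX10. Arrays 2 and 3 were both below sicontrol for 40.3% of those 144 and both above it for 34%. This pattern was described after the values had been seen and was not tested.

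Gene length moved with this spread. Across the 33 members above background, the difference of siNRCP arrays 2 and 3 (their mean) from array 1 correlated with genomic length at a Spearman rho of 0.52, against 0.42 over 11550 named genes, which share the same arrays and normalization. All of the 10 shortest members, from 1.42 kb (NOP10) to 8.48 kb (RRP9), were lower on siNRCP arrays 2 and 3 than on array 1, with a median difference of -0.90 log2. Of the 10 longest, from 30.4 kb to 276 kb (DDX10), 5 were lower, with a median of 0.02. No such split by length was made over all named genes. The sicontrol arrays varied along the same line. The difference of sicontrol array 1 from arrays 2 and 3 correlated with length at a rho of 0.31 over the members, and with the difference among the siNRCP arrays at 0.67. These were 0.26 and 0.61 over the 11550 named genes, and 0.37 and 0.68 over 144 other ribosome biogenesis genes. The pattern was thus not particular to the members. These are descriptions without a test. The part that RNA quality or array handling plays in these values was not tested. NOLC1 (11.5 kb) and DKC1 (14.8 kb) are of middling length, and their siNRCP arrays 2 and 3 exceeded array 1 by 0.13 and 0.37 log2.

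**Figure D4:**
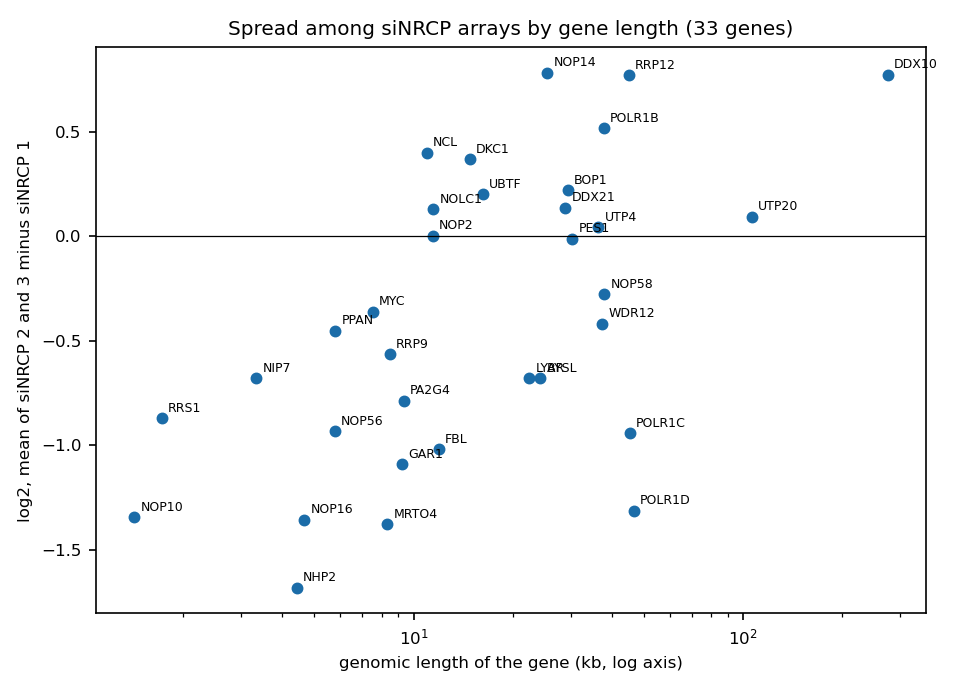
Genomic length (x axis, kb, log scale) against the log2 difference between the mean of siNRCP arrays 2 and 3 and siNRCP array 1 (y axis) for the 33 genes above background. The 10 shortest genes all lie below 0, and the shortest gene above 0 is NCL (11.0 kb).

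Beyond the members, 147 of 150 listed ribosome biogenesis genes had a named probe, and 2 of them rose and 0 fell. DHX37, a helicase that releases the U3 snoRNP from the small subunit precursor, read 8.57, 8.30 and 8.50 in sicontrol and 9.60, 10.28 and 10.09 in siNRCP. The groups were far apart, and DHX37 rose by 1.53 ± 0.18 log2 (2.90-fold; limma adjusted p = 0.013). A dim second probe read 0.40 ± 0.11 (adjusted p = 0.16), so the mean of its probes gave 0.97. MPHOSPH10, a component of the U3 snoRNP, read 8.77, 8.73 and 8.79 in sicontrol and 9.32, 9.32 and 9.29 in siNRCP. Its arrays were tight within each group, and it rose by 0.55 ± 0.08 (limma adjusted p = 0.024), with a second probe at 0.80 ± 0.09. Neither held up against every left-out array. DHX37 did not pass without sicontrol array 1, 2 or 3 or siNRCP array 3 (limma adjusted p = 0.086, 0.099, 0.12 and 0.078), nor did MPHOSPH10 without any array but siNRCP array 1 (adjusted p = 0.13, 0.14, 0.15, 0.090 and 0.10). Under median scaling MPHOSPH10 read 0.33 (0.43).

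The median change of the 147 genes was -0.004 log2 and differed by role. The RNA exosome, which trims precursor RNA, had the lowest, -0.45 over 13 genes, with -0.07 on siNRCP array 1 and -0.81 and -0.60 on arrays 2 and 3. EXOSC1, an exosome cap subunit, read 9.38, 9.60 and 9.55 in sicontrol and 9.51, 7.99 and 8.002 in siNRCP, a change of -1.01 ± 0.38 (limma adjusted p = 0.30). Its value thus rested on siNRCP arrays 2 and 3, and without array 1 it fell by 1.51 log2 (adjusted p = 2.2e-07). The largest values in the other roles were 0.75 ± 0.25 for TAF1C, a subunit of the RNA polymerase I selectivity factor (limma adjusted p = 0.23), 0.68 ± 0.15 for POP1, a subunit of RNase MRP (0.079), and 0.89 ± 0.25 for the helicase gene DDX54 (0.16). TAF1C, POP1 and DDX54 rose without siNRCP array 1, by 1.05, 0.80 and 1.21 log2 (limma adjusted p = 1.2e-05, 0.00017 and 1.4e-06). Without siNRCP array 1, 36 of these 147 rose and 47 fell, where 17% and 14.2% of all named genes did. Of the 11558 named genes above background, 3358 rose and 2830 fell. In either direction 57.6% of the 144 above background passed, against 53.5% of all named genes above background.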

How the data were processed

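The authors deposited, for each probe and array, a non-normalized bead intensity. The submitters' processing notes name BeadStudio; its version, and any background subtraction in it, are not given in the sources used here. A deposited matrix of log2 values, used as an alternative, was within 0.065 of what log2 and quantile scaling of that intensity gave here, and its median was 7.01; the target distribution is not stated. Per the labels' protocols 500 ng of total RNA per sample was labelled.

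The intensity was background corrected here with normexp (offset 50), quantile normalized and put on a log2 scale. All 47231 probes were fitted with limma 3.58.1 (R 4.3.3; lmFit and eBayes, no covariate), and p-values were adjusted by Benjamini-Hochberg over all probes, with a threshold of 0.05. Symbols came from the platform annotation by Entrez identifier (30113 probes with 1 symbol, 8 with several, 17110 with none). Lengths and upstream regions came from RefSeq tables of GRCh38.p14. The fit was checked on simulated data with independent noise per probe. Those data held no deviation shared across an array, so the check does not bear on the spread among the siNRCP arrays.

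The members and gene lists were chosen with earlier results of these data known. Values on every array are given for MYC, for members past the threshold, for the brightest member and the one with the largest change of each role, and for members whose probes disagree in sign; of the other pathway genes, changed genes are named, or else the largest change of a role. Array values of other members were picked after they had been seen. The number of arrays limits the precision. Alternatives were other background corrections and scalings, the series matrix, other variance models, array weights, a replicate block, a background filter, averaged probes and each array left out. The labels state no pairing, so the numbers were not taken as pairs. Correlations of same-numbered arrays' deviations from the group means were -0.64, -0.43 and -0.20 for numbers 1 to 3. With so few arrays these cannot settle whether the numbers mark pairs.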

Additional observations from a re-analysis of the deposited data

How the results depend on the processing

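Of the 22 genes followed through 16 alternatives, 301 of 352 values kept their direction and side of the threshold, 28 passed only under the alternative, 17 no longer passed and 6 changed sign. The sign changes were in BOP1 (-0.039), DDX21 (-0.079) and NCL (-0.18) under median scaling and in UTP4 with array weights (0.037) and with sicontrol array 1 (0.025) or siNRCP array 2 (0.035) left out (range -0.12 to 0.035), and none of these passed in either form. Median scaling moved the median of genes above background from 0.02 to -0.14 log2, that of the members to -0.24 and that of the other pathway genes to -0.20. Its calls among named genes split into 35 higher and 150 lower, against 255 and 303. The 781 probes called became 254 under median scaling, 469 with trend and robust options, 8167 with array weights, 0 with the replicate block (3144 named genes at an unadjusted p under 0.05) and 5 to 9920 with 1 array left out. Members called numbered 2 with cyclic loess, 15 with array weights, 0 with the replicate block (7 at an unadjusted p under 0.05) and 0 to 22 with 1 array left out. Of the other pathway genes 1 passed with an offset of 16, 1 under median scaling, 1 with trend and robust options, 72 with array weights, 0 with the replicate block (32 at an unadjusted p under 0.05) and 0 to 83 with 1 array left out. Of all 20046 named genes, 347 were called higher and 359 lower with cyclic loess, and 2904 and 2344 with array weights. An offset of 16 gave 249 and 261, trend and robust options 153 and 182, and the replicate block 0 and 0. The labels do not state whether same-numbered arrays were handled together, so the meaning of the block result (0 calls) cannot be told. The cause of these differences was not tested. Values near the background level, as for RRP9, UTP20 and NOLC1 in sicontrol, limit what a change there can show.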
